A study of Mus musculus with 18 samples.

Results

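The data are RNA levels of 6 rat genes, 2310002L09Rikl, Msrb2, Ildr2, Dguok, Opn3 and Cpa6, in the hearts of mutant and wild-type rats. The mutants are homozygous for a change that affects how titin, the spring protein of the sarcomere, is spliced. The genes were selected on large differences between the genotypes in these same arrays, outside Rbm20, the splicing regulator that the mutation of this rat line is known to affect. Every probe set whose platform annotation gives 1 of these symbols alone was taken. That gave 12 probe sets for 6 genes, out of 31042 probe sets tested and 14217 genes with a probe set of their own. Since the members were chosen by their genotype differences, those are described below with no test.

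The 18 arrays comprise 6 groups of 3 animals: wild type and mutant at day 1, day 20 and day 49 after birth. Per the labels, the mutation arose in Sprague-Dawley rats, which were then crossed with inbred Fisher 344 rats. Shared litters and the degree of inbreeding are not stated in the labels. The titles call the tissue whole heart, while the design text speaks of ventricular RNA from individual animals. The organism field names mouse although the array, strains and descriptions are rat, and the genotype field holds 1 entry, N2BA:N2B, for all samples, so that genotype was taken from the descriptions.

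Each value is a log2 level of 1 probe set on 1 array, so a difference of 1 is a doubling of signal. The authors summarised the probes with robust multi-array analysis (RMA), which gives every probe set a level even where its transcript is not above background. Array medians lay between 5.42 and 5.50. Levels near or below these may be mostly background, and differences there are compressed. A level of one probe set is not compared with that of another, since each has its own affinity. Their changes are compared, with the limit that a change near background is compressed. The RNA comes from whole tissue, in which fewer cells of a type and less RNA per cell cannot be told apart.

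As a check of the labels, Rbm20 probe set 1391810_at was lower in the mutant by 5.04 ± 0.20 (SE, n = 3 per genotype) at day 1, with a mutant mean of 5.71 and a wild-type mean of 10.75, and the 9 wild-type arrays all lay above the 9 mutant ones. All 6 measured cardiomyocyte markers had mean levels between 12.17 (Ryr2) and 14.13 (Myl2). The level summed over 3 lung epithelial markers lay between 5.46 and 5.98, and that over 2 thymocyte markers between 5.54 and 6.14. Some other features moved with age or genotype and are given here as values. The Gapdh gap and Xist were each also run as a covariate, and the part of the cell type markers in the results below was not tested. The gap between the 3′ and 5′ Gapdh probe sets, a sign of uneven RNA ends, was 0.63 to 1.37 at day 1, 0.33 to 0.90 at day 20 and 0.33 to 0.48 at day 49. Proliferating-cell markers fell between day 1 and day 20 in 5 of 5 genes, from summed levels of 11.59 to 12.01 down to 7.84 to 8.86. They were higher in the mutant in 3 of 5 on the mean of the ages (Mki67, Cdk1 and Kif20a, 0.47 to 0.51). Of 4 atrial markers 3 fell between day 1 and day 20, and 1, Nppa, was higher in the mutant on the mean of the ages. The summed level of the atrial markers at day 49 was 11.44 to 11.84 in the wild type and 12.23 to 13.94 in the mutant. This sum is weighted to the brightest of them, Nppa (mean level 12.65). At day 49 Nppa (1.45), Myl4 (1.79) and Sln (0.62) were higher in the mutant and Myl7 lower (-0.95), none of them called. The fibroblast marker Postn was higher in the mutant at day 49 by 1.12 (limma's adjusted p = 0.0289), 1 of 7 of its list. Leukocyte markers rose in 4 of 7 at the first age step and in 5 of 7 at the second. In each genotype, animals with high Xist numbered 2 of 3 at day 49 but 1 of 3 at either younger age.

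The members have different roles. Msrb2 encodes a mitochondrial methionine sulfoxide reductase, which repairs oxidised methionine residues in proteins and is regenerated by the thioredoxin system. Dguok encodes the mitochondrial deoxyguanosine kinase, which salvages purine deoxynucleosides as building blocks for mitochondrial DNA, a supply that matters in tissues such as heart that no longer divide. Opn3 is an opsin, a G protein-coupled receptor of the light-sensing family that is transcribed in many tissues outside the eye. Ildr2 is a membrane protein with an immunoglobulin-like domain, of the angulin family with Lsr and Ildr1, whose members sit where 3 epithelial cells meet. Cpa6 is a secreted metallocarboxypeptidase of the M14 family, which trims amino acids from the carboxyl end of peptides. For 2310002L09Rikl no function is stated here. No sequence of a member is shown, since the reference tables used here are of mouse.

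2310002L09Rikl had 3 probe sets, which disagreed in direction between the genotypes. In the wild type, 1383672_at read 5.64, 5.58 and 5.28 at day 1, 5.82, 5.30 and 5.72 at day 20, and 6.16, 5.85 and 6.24 at day 49. In the mutant it read 6.36, 6.35 and 5.84, then 9.20, 9.18 and 9.17, then 9.81, 9.80 and 9.64. Mutant arrays were above wild-type arrays at each age, by a narrow margin of 0.19 at day 1 and by 3.34 and 3.41 between the nearest arrays at day 20 and day 49. The means differed by 0.68 at day 1, by 3.57 at day 20 and by 3.67 at day 49 (SE 0.15 each), or 11.9-fold and 12.7-fold at the later ages. Wild-type levels stayed close to the array medians throughout, so these folds could be understated.

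The second probe set, 1396949_at, went the other way. Wild-type arrays read 4.62, 4.76 and 4.15 at day 1, 8.53, 8.54 and 8.40 at day 20, and 8.54, 8.99 and 8.78 at day 49. Mutant arrays read 3.90, 4.30 and 4.07, then 7.10, 7.33 and 6.97, then 7.03, 7.33 and 7.24. The genotypes overlapped at day 1, when both were dim, and separated at the later ages with the mutant lower, by -1.36 at day 20 and -1.57 at day 49 (SE 0.15), or 2.56-fold and 2.97-fold. The probe set 1398593_at read 5.26, 4.79 and 4.55 in the wild type and 5.26, 5.42 and 4.98 in the mutant at day 1. At day 20 it read 7.45, 6.96 and 7.35 against 9.07, 9.12 and 9.16, and at day 49 7.84, 7.91 and 7.98 against 9.5, 9.45 and 9.70. The mutant was higher without overlap at both later ages, by 1.86 and 1.64 (SE 0.16). The value at day 1 was 0.36, and 0.55 or 0.20 without wild-type array 1 or 3. By the size of the mean difference over the ages, the 3 probe sets (2.64, 1.29 and -1.12) ranked 3, 13 and 20 of all probe sets, and no other member was among the first 25.

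**Figure D1:**
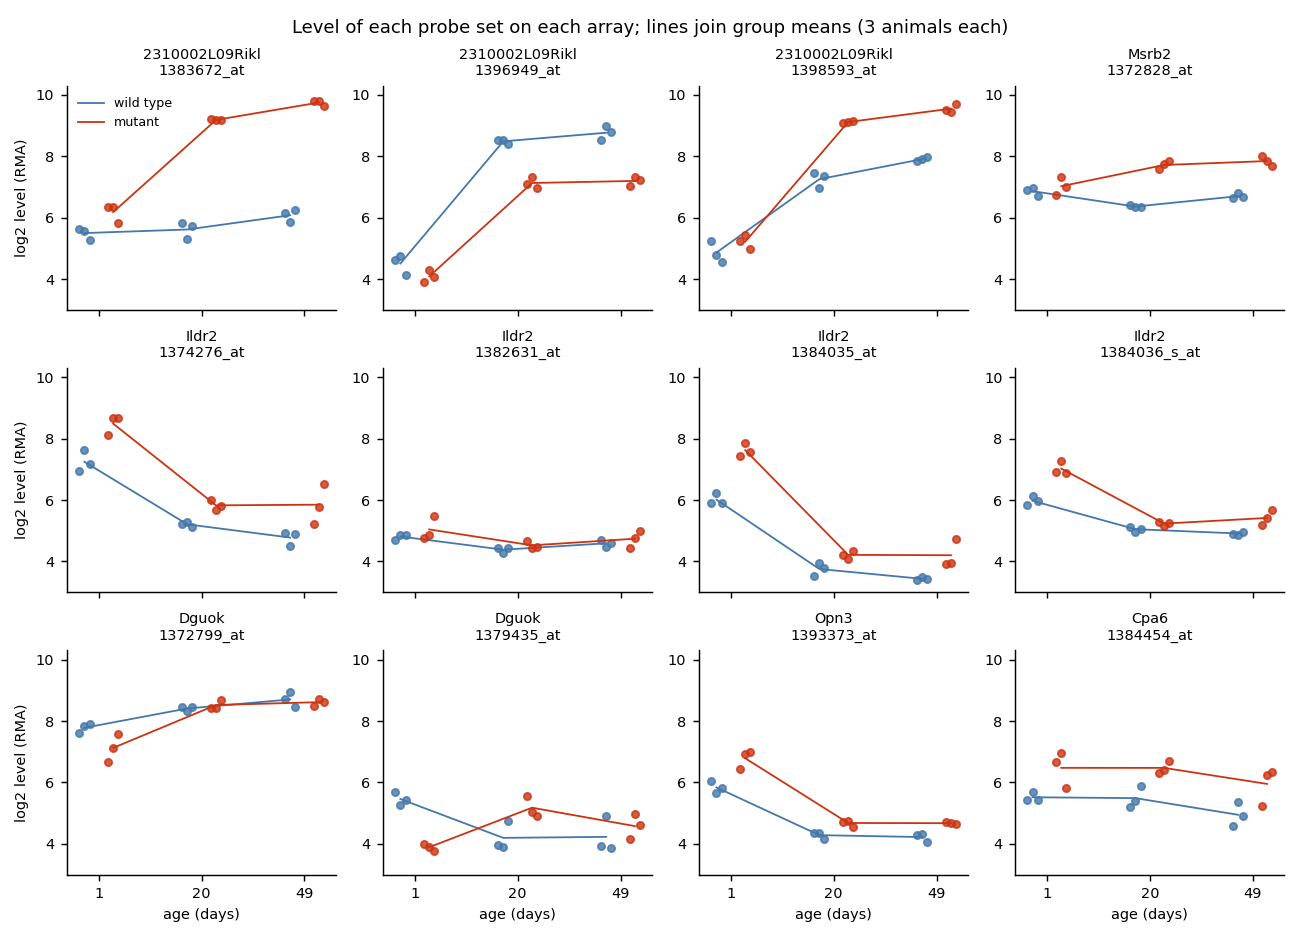
Log2 level (RMA) of the 12 probe sets of the 6 genes on each of the 18 arrays, by age in days on evenly spaced positions. Points are animals, 3 per genotype and age, wild type in blue and mutant in red, and lines join group means. The 3 probe sets of 2310002L09Rikl all separate by genotype at day 20 and day 49, 2 with the mutant above and 1 with it below. Of these, 1383672_at also separates at day 1, by 0.19 between the nearest arrays. Ildr2 and Opn3 are highest at day 1.

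Msrb2 also separated between the genotypes after day 1. Its probe set 1372828_at read 6.92, 6.97 and 6.71 in the wild type and 6.75, 7.33 and 6.99 in the mutant at day 1, where they overlapped. At day 20 the wild type read 6.40, 6.35 and 6.34 and the mutant 7.58, 7.74 and 7.83. At day 49 the values were 6.64, 6.81 and 6.67 against 8.0, 7.86 and 7.67. Each mutant array of the later ages lay above each wild-type array of any age. The difference was 0.16 ± 0.13 (SE, n = 3 per genotype) at day 1, 1.35 ± 0.13 at day 20 and 1.14 ± 0.13 at day 49. The value at day 1 rested on single arrays, being 0.30 and 0.01 without mutant array 1 or 2 and 0.08 without wild-type array 3. Between day 1 and day 20 the level went down by a mean of -0.50 in the wild type and up by 0.69 in the mutant, each with an SE of 0.13.

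Dguok was read by a bright probe set, 1372799_at, and a dim one, 1379435_at. The bright one read 7.60, 7.82 and 7.92 in the wild type and 6.68, 7.12 and 7.58 in the mutant at day 1, separated by 0.02 between the nearest arrays. At day 20 it read 8.45, 8.34 and 8.44 against 8.44, 8.44 and 8.69, and at day 49 8.70, 8.95 and 8.46 against 8.49, 8.73 and 8.63. The genotypes overlapped at both later ages, and the differences were -0.65, 0.11 and -0.09 (SE 0.17) at the 3 ages. The value at day 1 was -0.43 without mutant array 1. That at day 20 was 0.03 without mutant array 3, and that at day 49 ranged from -0.21 without wild-type array 3 to 0.03 without wild-type array 2.

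The dim Dguok probe set turned its direction with age. Wild-type arrays read 5.68, 5.25 and 5.44 at day 1, 3.96, 3.89 and 4.74 at day 20 and 3.92, 4.90 and 3.87 at day 49. Mutant arrays read 4.0, 3.89 and 3.78, then 5.57, 5.05 and 4.91, then 4.15, 4.98 and 4.60. The mutant was lower than every wild-type array at day 1 (-1.57 ± 0.27, SE), higher than every one at day 20 (0.98 ± 0.27) and overlapped them at day 49 (0.35 ± 0.27). The last value ranged from 0.15 without mutant array 2 to 0.69 without wild-type array 2. The group means ran from 3.89 to 5.46, close to or below the array medians. On the mean of the ages the 2 probe sets stood at -0.21 ± 0.10 and -0.08 ± 0.16, each an average over differences of both signs. Dguok's largest differences were those of the dim probe set at day 1 and day 20. The bright one was also lower in the mutant at day 1 (-0.65), with 0.02 between the nearest arrays.

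Opn3 was higher in the mutant at each age. Its probe set 1393373_at read 6.04, 5.66 and 5.81 in the wild type and 6.43, 6.93 and 7.0 in the mutant at day 1. At day 20 it read 4.36, 4.35 and 4.15 against 4.73, 4.75 and 4.56, and at day 49 4.28, 4.31 and 4.07 against 4.70, 4.68 and 4.63. The genotypes did not overlap at any single age, with 0.20 between the nearest arrays at day 20. The differences were 0.95, 0.40 and 0.45 (SE 0.13), and at the later ages both genotypes lay below the array medians, where differences are compressed.

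In 3 of the 4 Ildr2 probe sets all mutant arrays lay above the wild-type ones at each age, with the largest difference at day 1. In the wild type, 1384035_at read 5.90, 6.22 and 5.92 at day 1, 3.54, 3.95 and 3.77 at day 20 and 3.39, 3.49 and 3.42 at day 49. In the mutant it read 7.45, 7.86 and 7.56, then 4.23, 4.09 and 4.34, then 3.93, 3.96 and 4.72. The arrays did not overlap at any age, although the nearest ones were only 0.13 apart at day 20 and all levels of the later ages were dim. The differences were 1.61, 0.46 and 0.77 (SE 0.17). Without mutant array 3 the last was 0.51.

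The brighter Ildr2 probe set, 1374276_at, read 6.96, 7.62 and 7.16 in the wild type and 8.12, 8.67 and 8.67 in the mutant at day 1. It read 5.23, 5.27 and 5.13 against 6.01, 5.66 and 5.81 at day 20, and 4.93, 4.52 and 4.89 against 5.23, 5.78 and 6.53 at day 49. Mutant arrays were above wild-type ones at each age, by 1.24, 0.62 and 1.07 (SE 0.24), and at day 49 they spread more widely (SD 0.65) than the wild type (SD 0.23). With single arrays left out the day-1 difference ranged from 1.10 to 1.43 and that at day 49 from 0.73 to 1.38. For this probe set it is therefore not settled which of these ages had the larger difference. Of the remaining 2, 1384036_s_at stems from the same annotated sequence as 1384035_at, so these are not independent readings. It differed by 1.05, 0.18 and 0.51 (SE 0.12), with no overlap, though only 0.03 separated the nearest arrays at day 20. The dim 1382631_at lay between 4.27 and 5.49 on all arrays and differed by 0.23, 0.14 and 0.15 (SE 0.16), with overlap at day 1 and day 49. With single arrays left out these values ranged from 0.01 to 0.36, from 0.07 to 0.18 and from 0.02 to 0.29, the lowest being without mutant arrays 3, 1 and 3.

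Cpa6 differed by about the same amount at each age. Its probe set 1384454_at read 5.44, 5.68 and 5.43 in the wild type and 6.65, 6.94 and 5.83 in the mutant at day 1. At day 20 it read 5.20, 5.39 and 5.87 against 6.31, 6.41 and 6.70, and at day 49 4.57, 5.37 and 4.89 against 5.25, 6.26 and 6.35. The genotypes did not overlap at the first 2 ages, and at day 49 mutant array 1 lay below the highest wild-type array. The differences were 0.96, 0.98 and 1.01 (SE 0.29), and that error was the largest among the members. With single arrays left out they ranged from 0.72 to 1.28, from 0.84 to 1.18 and from 0.81 to 1.36, too imprecise to show an unchanged size. Wild-type means of 5.52, 5.49 and 4.95 lay close to or below the array medians, where differences are compressed.

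Counted over the members, the mutant arrays lay above all wild-type arrays in 6 of 12 probe sets at day 1, in 10 at day 20 and in 7 at day 49, and below them in 2, 1 and 1. Among all probe sets, counting both directions, the genotypes did not overlap in 9.07%, 10.4% and 13.7% at the 3 ages. Pooled over the ages, none of the 12 separated all 9 mutant arrays from all 9 wild-type arrays, which 0.0419% of all probe sets did, both Rbm20 ones included. Since these differences chose the genes, nothing is read from the counts.

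**Figure D2:**
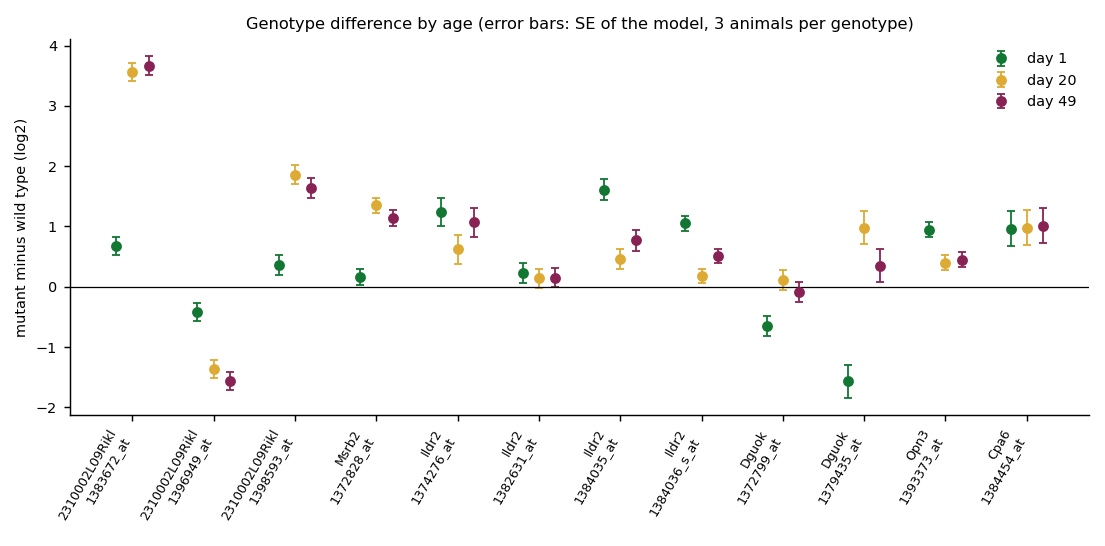
Mutant minus wild type (log2) for each of the 12 probe sets at day 1 (green), day 20 (yellow) and day 49 (purple). Points are differences of group means of 3 animals each, bars are SE of the model. 2310002L09Rikl 1383672_at reaches 3.57 and 3.67 at the later ages, Ildr2 1384035_at and Opn3 are largest at day 1, Cpa6 stays between 0.96 and 1.01, and Dguok 1379435_at crosses 0.

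The change with age, averaged over both genotypes, was not used to choose the genes and was tested. Such an average still holds the mutant's change, and with it part of a genotype difference that grows with age. Between day 1 and day 20 all 3 probe sets of 2310002L09Rikl rose on this average, by 1.56 ± 0.11 (SE, 6 animals per age, limma's adjusted p = 1.63e-09), 3.51 ± 0.11 (3.71e-14) and 3.14 ± 0.11 (1.54e-13). The first of these, 1383672_at, changed by 0.12 in the wild type and 3.0 in the mutant, so its call rests on the mutant. The bright Dguok probe set rose by 1.01 ± 0.12 (1.78e-06). Ildr2 fell in all 4 probe sets. Of these, 1374276_at fell by 2.35 (adjusted p = 3.09e-09), 1384035_at fell by 2.83 (2.39e-12), 1384036_s_at fell by 1.36 (5e-10) and 1382631_at fell by 0.47 (0.00211). Opn3 fell by 1.83 (2.67e-11). Msrb2 (0.10 ± 0.09), the dim Dguok probe set (0.01 ± 0.19) and Cpa6 (-0.01 ± 0.20) did not pass. In all 4 of 12 probe sets rose and 5 fell, against 19.5% and 21.5% of all probe sets, and the median change was 0.00 over the members and 0.04 over all. Most of both counts are repeated readings of 2310002L09Rikl and Ildr2, so nothing is read from them. With the Gapdh gap as a covariate, the Dguok change was 0.66 and that of 1382631_at -0.74, both still called.

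These averages cover unlike courses in the genotypes. For 2310002L09Rikl, the mean level of 1383672_at changed by 0.12 in the wild type and 3.0 in the mutant (SE 0.15 each), that of 1396949_at by 3.98 and 3.04, and that of 1398593_at by 2.39 and 3.90. So in the wild type 1 probe set stayed near its newborn level while the others moved several log2 units, and in the mutant all 3 moved by 3.0 to 3.90. The dim Dguok probe set changed by -1.26 in the wild type and 1.29 in the mutant, which cancel in the average. Ildr2 1384035_at changed by -2.26 and -3.41 and Opn3 by -1.55 and -2.11, in the same direction. How far the genotypes differ in these changes follows from the differences that chose the genes, and was not tested.

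Between day 20 and day 49 the members moved little. 2310002L09Rikl rose in 1383672_at by 0.52 ± 0.11 (adjusted p = 0.00218) and in 1398593_at by 0.54 ± 0.11 (0.00172), while 1396949_at (0.17 ± 0.11, 0.265) did not pass. Thus 2 of 12 probe sets, both of the same gene, rose and 0 fell by limma's test, against 10.1% and 13.4% of all probe sets. The nearest to the threshold were Cpa6 (-0.53 ± 0.20, 0.0675) and Msrb2 (0.23 ± 0.09, 0.0693, which passed after quantile normalization, at 0.30 and 0.00758). Without mutant day-49 array 3 there were 5 calls, with Cpa6, Msrb2 and Ildr2 1384035_at added.

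**Figure D3:**
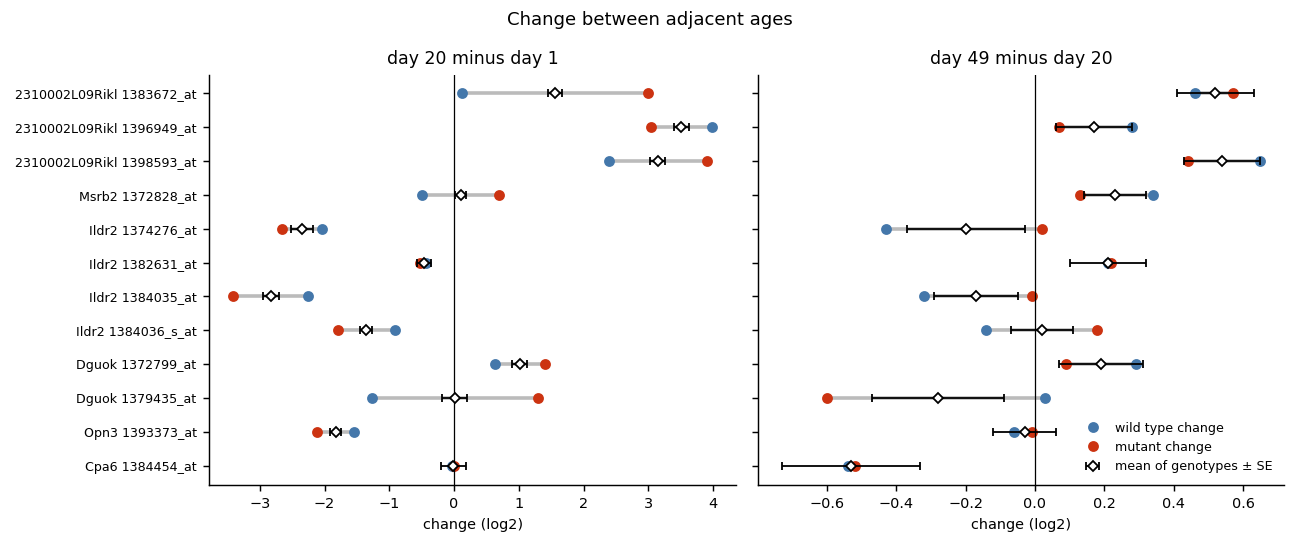
Change of the log2 level of each probe set between adjacent ages, day 1 to day 20 on the left and day 20 to day 49 on the right, on different scales. Blue and red points are the wild-type and mutant changes (3 animals per age), open diamonds the mean of both with the SE of the model. The wild-type and mutant points of 2310002L09Rikl 1383672_at are 0.12 and 3.0 on the left, and those of Cpa6 coincide.

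Whether probe sets of a gene changed alike with age was tested on the gap between 2 probe sets on each array, with age labels permuted within each genotype (two-sided exact permutation test, 20 tests, 0.005 the smallest p possible). The gap changed in 7 of 20 tests after adjustment, all between day 1 and day 20. For 2310002L09Rikl, the change of 1383672_at was below that of 1398593_at by -1.58 (exact p = 0.005, adjusted 0.0167), by -2.27 in the wild type and -0.89 in the mutant. Against 1396949_at the mean was -1.95 (exact p = 0.05, adjusted 0.0769), made of -3.86 in the wild type and -0.04 in the mutant. All 6 pairs of Ildr2 probe sets passed, with the dim 1382631_at falling less than 1384035_at by 2.36 (exact p = 0.005, adjusted 0.0167). The former lay between 4.27 and 5.49 on all arrays. Differences near background are compressed, which alone can change a gap between probe sets, and this was not tested. The fall of 1384035_at exceeded that of 1384036_s_at, from the same annotated sequence, by 1.48 and that of 1374276_at by 0.48 (adjusted p = 0.0167 and 0.0429, exact permutation). The 2 Dguok probe sets differed by 1.00, with an exact p of 0.04 and 0.0667 after adjustment.

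**Figure D4:**
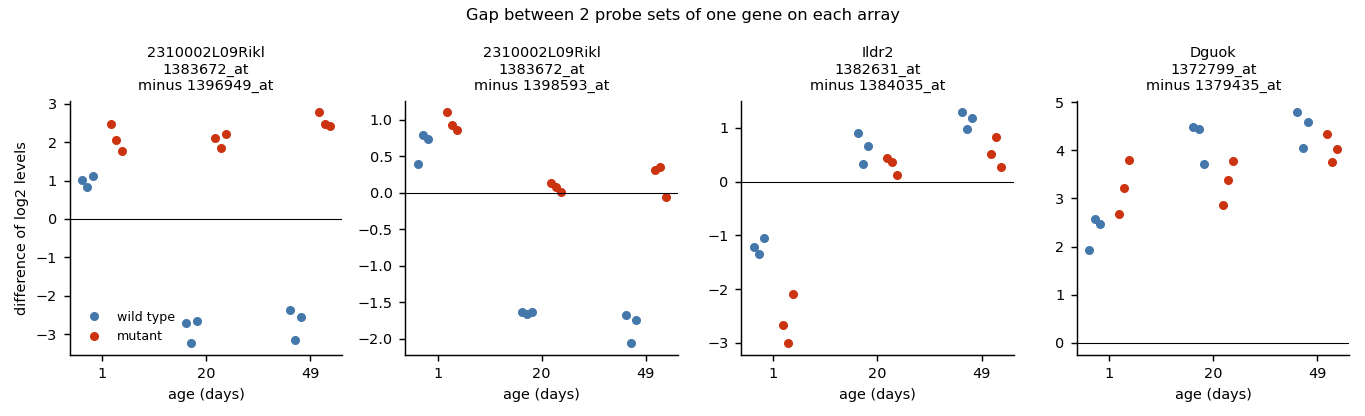
Difference between the log2 levels of 2 probe sets of a gene on each array, by age, with wild type in blue and mutant in red (3 animals each). The height of the gap is not comparable between panels, since each probe set has its own affinity, and its change also depends on how dim each probe set is. The wild-type gap of 2310002L09Rikl 1383672_at to 1396949_at goes from between 0.82 and 1.13 at day 1 to between -3.23 and -2.67 at day 20, while the mutant gap is 1.77 to 2.46 and 1.86 to 2.20.

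Within the groups, the probe sets of a gene were compared animal by animal, and no pair passed after adjustment. Over the 18 deviations from the group means, 1383672_at and 1398593_at of 2310002L09Rikl had a Pearson r of 0.70 (exact permutation p = 0.0241) and a Spearman rho of 0.62 (0.0403), and r was 0.54 without the 2 arrays farthest out. With 1396949_at they had r of 0.07 (exact permutation p = 0.816) and 0.34 (0.399), and rho of 0.02 (0.960) and 0.20 (0.538). For Ildr2, 1374276_at had r of 0.70, 0.76 and 0.79 with the other probe sets (exact permutation p = 0.0237, 0.0177 and 0.0185) and rho of 0.64, 0.67 and 0.75 (0.0394, 0.0212 and 0.00847), and r was 0.55, 0.52 and 0.62 without the farthest arrays. The dim 1382631_at had r of 0.26 with 1384035_at (exact permutation p = 0.485) and 0.28 with 1384036_s_at (0.526), with rho of 0.19 (0.559) and 0.39 (0.240). Between 1384035_at and 1384036_s_at r was 0.70 (exact permutation p = 0.0477) and rho 0.58 (0.0625). For the Dguok pair r was 0.15 (exact permutation p = 0.554) and rho 0.20 (0.487). Of 10 such pairs computed, 0 passed after adjustment of the exact permutation p of r, the smallest adjusted value being 0.0602, and 5 had an unadjusted p below 0.05.

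Genes whose levels followed a member most closely over the 18 arrays were named as a description, since all arrays share the age and genotype groups. The level of 2310002L09Rikl 1383672_at was most like that of another member, Msrb2 (r = 0.913), then Myot (0.859), the myotilin of the Z-disc, and Dnajb5 (0.848). Msrb2 in turn was most like 2310002L09Rikl, then Kcnq1 (0.909), a potassium channel of repolarization, and Arpc5l (0.859). Ildr2 1374276_at followed Tgfb2 (0.984), a growth factor, Sorbs2 (0.968) and Ncam1 (0.964), a cell adhesion molecule. Opn3 followed Azin1 (0.980), Ildr2 1384035_at (0.978) and Mtfr2 (0.975). Dguok 1372799_at followed Syngr2 (0.964), Endog (0.954), a mitochondrial nuclease, and Psap (0.952), a lysosomal protein. Cpa6 had the least close partners, Vcf2 (0.829), Prune2 (0.794) and Fhip2a (0.772).

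Members that were alike over all levels had low correlations among the animals within a group, given with no test. With so few animals such values are imprecise. 2310002L09Rikl and Msrb2 had an r of 0.91 over the levels and 0.17 over the deviations from group means. Ildr2 and Opn3 had 0.96 and 0.02. Dguok ran opposite to both over the levels, with -0.89 for Opn3 and -0.86 for Ildr2, and had 0.47 and 0.29 over the deviations. Among all pairs of members the largest value over the deviations was -0.62, of 2310002L09Rikl with Dguok, which had 0.40 over the levels. Each gene enters here by 1 probe set, and the level correlations hold the genotype differences that chose the genes.

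The relatives of the members, from 5 gene lists chosen with earlier results known, asked whether a member's family or pathway differed too. Of 77 measured relatives, limma called 0 at day 1, 0 at day 20, 1 at day 49 and 1 on the mean of the ages, against 0.11%, 0.139%, 0.606% and 1.39% of all probe sets in either direction. At an unadjusted p below 0.05 there were 4, 4, 13 and 17 relatives, or 5.19%, 5.19%, 16.9% and 22.1%, against 6.70%, 4.27%, 8.16% and 9.63% of all probe sets. Each relative was read by its brightest probe set, while all probe sets include dim and repeated ones, so these shares are not like for like. The called relative at day 49 and on the mean was Gnao1, a G protein alpha subunit in the opsin list. It was higher in the mutant by 0.63, 0.55 and 1.44 at the 3 ages (SE 0.20, adjusted p = 0.382, 0.812 and 0.000693), and by 0.87 ± 0.11 on the mean (0.000316).

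In the other lists none passed. Of the genes named below, Msra (mean level 5.09), Lsr (5.50), Ildr1 (5.06) and Cpa3 (4.49) lay near or below the array medians. So did others of the lists, such as Cgn (4.31) and Cpa1 (3.90). Differences there are compressed, so a small value does not show that a gene was unchanged. For Msrb2, the list held 13 genes of methionine sulfoxide reduction, the thioredoxin system and related redox functions, such as Sod2 and Glrx2. Its largest mean differences were Msra, the reductase of the other stereoisomer (-0.24 ± 0.08, limma's adjusted p = 0.251), and Txnrd2, the mitochondrial thioredoxin reductase (-0.23 ± 0.06, 0.0658). Msrb1 and Msrb3 stood at 0.11 ± 0.08 and 0.10 ± 0.06. The list's median at day 20, where Msrb2 differed most, was -0.05. For Dguok, among 21 genes of deoxynucleotide supply and mitochondrial DNA upkeep they were Polg2 (-0.25 ± 0.08, 0.182) and Mgme1 (-0.23 ± 0.11, 0.488), which act in copying mitochondrial DNA. Tk2, the mitochondrial kinase for the other deoxynucleosides, was at -0.13 ± 0.08. For Ildr2, among 14 angulin and tight junction genes they were Cgnl1 (0.21 ± 0.12, 0.640) and Lsr (0.16 ± 0.07, 0.444), and Ildr1 was at 0.00 ± 0.07. For Cpa6, among 16 carboxypeptidase-related genes, most but not all of the M14 family, they were Aebp1 (0.28 ± 0.10, 0.244) and Cpa3 (-0.20 ± 0.06, 0.186), the mast cell enzyme.

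Between day 1 and day 20, 21 of the 77 relatives rose (27.3%) and 15 fell (19.5%), against 19.5% and 21.5% of all probe sets. Relatives were read by their brightest probe set, while all probe sets include dim and repeated ones, so nothing is read from these shares. Over the same step Msrb2 itself averaged 0.10, made of -0.50 in the wild type and 0.69 in the mutant. Of its 13 relatives 7 rose and 2 fell, with a median of 0.38 against 0.04 over all probe sets. Among those that rose were Msrb1 (0.59 ± 0.10, limma's adjusted p = 6.9e-05) and Msrb3 (0.43 ± 0.08, 0.000172). Of 21 relatives of Dguok 5 rose and 6 fell, with a median of 0.00. Among the cytosolic kinases Tk1 fell by 1.80 (5.34e-10) and Dck fell by 0.70 (0.000166), while Dguok rose and Tk2 did not pass (-0.09 ± 0.09, 0.478). Of 14 relatives of Ildr2 3 rose and 2 fell, and Lsr fell with it by 0.76 (8.04e-07). Of 13 relatives of Opn3 1 rose and 4 fell, including Opn4, the melanopsin, which fell by 0.56 (0.000709), at a dim mean level of 4.46. Of 16 relatives of Cpa6 5 rose and 1 fell.

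To see whether genes near a member differed too, the 5 nearest measured genes on each side were taken in the mouse gene order, since no rat genome was used here. This was possible for 5 members, as 2310002L09Rikl was not matched, and the order in rat may differ. Of 50 neighbours 1 was called on the mean of the ages by limma, against 1.39% of all probe sets. It was Dnajc1, an endoplasmic reticulum cochaperone, which lies 4 measured genes from Msrb2 and was higher in the mutant by 0.58 ± 0.10 (adjusted p = 0.00361), and by 1.07 ± 0.17 at day 49 (0.00342). The immediate neighbours of Msrb2, Armc3 and Ptf1a, were at 0.03 ± 0.06 and 0.09 ± 0.07.

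Around the others no neighbour passed. For Ildr2, Pou2f1 and Tada1 stood at 0.21 ± 0.09 and -0.07 ± 0.06. For Dguok, Tet3 and Actg2 were at -0.05 ± 0.07 and 0.06 ± 0.13. For Opn3, Kmo and Exo1 were at -0.05 ± 0.06 and -0.01 ± 0.09, and for Cpa6, Arfgef1 and Prex2 at 0.06 ± 0.06 and 0.09 ± 0.07. The median size of the difference was 0.06 over the 50 neighbours and 0.05 over all probe sets. With 10 genes on each side, Rxrg near Ildr2 was called as well.

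**Figure D5:**
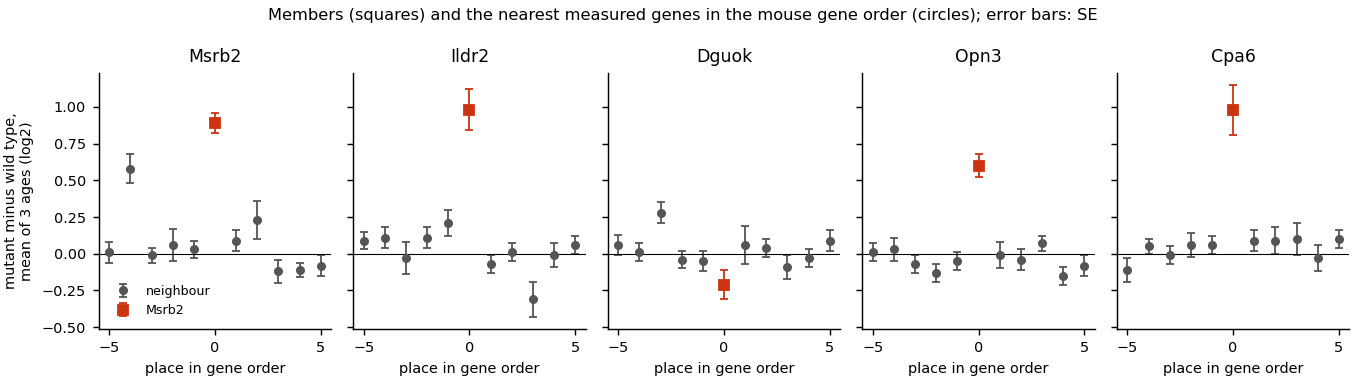
Mutant minus wild type on the mean of the 3 ages (log2, bars SE of the model) for 5 members at place 0 (squares, the probe set of largest mean difference) and the 5 nearest measured genes on each side in the mouse gene order (circles). Among the circles Dnajc1, 4 places from Msrb2, is highest at 0.58, and the others lie between -0.31 and 0.28.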

How the data were processed

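The arrays were Affymetrix Rat 230 2.0, hybridised with biotin-labelled cRNA from total RNA. The deposited log2 values were made by the authors, per the labels and design text, with robust multi-array analysis (RMA), for which the submitters' notes give no version. No filter or further scaling was applied. Of 31099 probe sets, 57 controls were left out. Symbols came from the platform annotation.

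The members and all lists were chosen with earlier results of these data known. Tests used limma 3.58.1 in R 4.3.3 (lmFit, eBayes), with 1 model of 6 groups over 18 arrays (12 residual and 5.77 prior degrees of freedom), two-sided, Benjamini-Hochberg adjusted over 31042 probe sets and called at an adjusted p below 0.05. The model was checked on simulated data. Errors of differences are the model's SE. Arrays of a group are separate animals, and shared litters are not stated in the labels. Pairs of probe sets used exact permutation tests.

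Named were all members, the 3 genes most correlated with each member's probe set of largest mean genotype difference, over levels and over deviations from group means, Rbm20, called relatives and neighbours, otherwise the 2 relatives of largest difference, and the nearest neighbours. Beyond this, Msrb1, Msrb3, Tk2, Ildr1 and the relatives named for their age changes were added with their values known. Relatives, neighbours and markers were read by their brightest probe set. Neighbours come from the gene order of the RefSeq mouse annotation, GRCm38.p6. Alternatives were array centring, quantile normalization, a filter on dim probe sets, another variance model, fits of fewer arrays, a replicate block, the Gapdh gap or Xist as a covariate, and leaving out each array.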

Additional observations from a re-analysis of the deposited data

Results flagged for a closer look

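Dguok 1379435_at differed in opposite directions at adjacent ages. Every mutant array lay below every wild-type array at day 1 (-1.57) and above every one at day 20 (0.98), by 0.18 between the nearest arrays. Its change between these ages was -1.26 in wild-type animals and 1.29 in mutants. This probe set is dim, with group means from 3.89 to 5.46. The bright Dguok 1372799_at differed by -0.65 at day 1 and by 0.11 at day 20, with overlap at day 20. Among all probe sets the genotypes did not overlap in 9.07% at day 1 and 10.4% at day 20. Between the same ages the mean of Msrb2 changed by -0.50 in wild-type and 0.69 in mutant animals. These differences between ages and genotypes were not tested, because genotype differences chose the genes.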

How the results depend on the processing

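Of 12 member probe sets, the 9 calls between day 1 and day 20 stayed 9 under each alternative, except 6 where the dim probe sets were left out, 3 of the 9 being among them. Between day 20 and day 49 the count was 4 in a fit of those ages alone, 3 with quantile normalization (Msrb2 added) and 2 to 5 when single arrays were left out, with 5 without mutant day-49 array 3. Some values near 0 changed sign. Among the age changes these were Ildr2 1384036_s_at between day 20 and day 49 (-0.01 with arrays centred, -0.02 with quantile normalization, -0.04 to 0.08 with single arrays left out), Dguok 1379435_at between day 1 and day 20 (-0.02 with quantile normalization, -0.12 to 0.09) and Cpa6 between the same ages (0.23 with the Gapdh gap, -0.18 to 0.10). Among the genotype differences they were Dguok 1372799_at at day 49 (-0.21 to 0.03) and 1379435_at on the mean of the ages (-0.14 to 0.03), both with single arrays left out. Relatives called on the mean of the ages were 3 with quantile normalization (Gnao1, Txnrd2 and Cpe), 2 with dim probe sets left out (Gnao1 and Txnrd2), 2 with the other variance model (Gnao1 and Cpe) and 1 to 2 with single arrays left out, where Opn4 was added without wild-type day-1 array 2 and Txnrd2 without wild-type day-49 array 3. Neighbours called were 2 with dim probe sets left out and 2 with the Gapdh gap (Dnajc1 and Mthfd2 in both), 2 with 10 genes on each side (Dnajc1 and Rxrg), and 1 to 2 with single arrays left out, with Mthfd2 added without mutant day-1 array 1 or day-49 array 3 and Fam78b without mutant day-49 array 2. The causes were not tested. Pairs of probe sets whose gap changed with age numbered 6 to 10 with single arrays left out.

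With a replicate block the calls were 9 and 3 for the age steps, Cpa6 being added to the latter, and 1 relative and 1 neighbour. Deviations of same-numbered arrays correlated at -0.20 to 0.22, so the numbers are not taken to pair the animals. The 3 animals per group limit the precision, and dim probe sets, Dguok 1379435_at and Ildr2 1382631_at among them, bound what can be read.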

Other observations

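Over the deviations from the 6 group means, which leave age and genotype out, the genes most like the members were other ones than over the levels. They are values over 18 arrays, given with no test, and the highest of so many correlations are high by selection. For 2310002L09Rikl 1383672_at these were Krt1 (r = 0.880), Camk2a (0.862) and Kansl1 (0.842). Msrb2 had Lamtor4 (0.923), Dyrk1a (0.898) and Bmyc (0.882), and Ildr2 1374276_at had Vcam1 (0.861), Cybb (0.848) and Vcan (0.841). For Dguok 1372799_at they were Glud1 (0.926), the mitochondrial glutamate dehydrogenase, Snrnp25 (0.912) and Uqcrfs1 (0.901), the iron-sulfur subunit of respiratory complex III. Opn3 had Sdc1 (0.926), Ogdh (0.895) and Klhl5 (0.872), and Cpa6 had RT1-DMa (0.844), Csf2 (0.841) and Tmem131l (0.838).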
